A study of Homo sapiens with 10 samples.

Results

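The genes described here are ACTB, which encodes the cytoplasmic beta-actin, and 9 further genes of actin filament assembly and turnover: the actins ACTG1 and ACTA2, the alpha-actinins ACTN1 and ACTN4, the profilins PFN1 and PFN2, the cofilins CFL1 and CFL2, and the cyclase-associated protein CAP1. They were 10 of the 52402 gene symbols listed. ACTB was chosen by its own counts, which fell with the miR3124_mimic, and the other genes were added by name to describe the other actins and the proteins that handle actin monomers and filaments. The ACTB values of miR3124_mimic and miRcontrol therefore chose the gene. They are given as a description, without a test, as is every comparison of ACTB that has miR3124_mimic or miRcontrol on either side. The other genes were also chosen with earlier results of these data known, and their p-values do not allow for that.

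Actin exists as monomers and as filaments, and cells keep the balance by adding monomers at one end of a filament and removing them at the other. Profilins bind monomers and hand them to growing ends, cofilins sever and disassemble old filaments, CAP1 helps cofilin and recharges the released monomers, and alpha-actinins tie filaments into bundles and to adhesions. Beta- and gamma-actin are nearly identical proteins made from separate genes in most non-muscle cells, whereas ACTA2 encodes the alpha-actin of smooth muscle and myofibroblasts.

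BEAS2B, a line of human bronchial epithelium with WT as its labelled genotype, was transfected with Lipofectamine 2000 in 5 groups of 2 libraries: miRcontrol (a scrambled miRNA), miR3124_mimic, miR200b_mimic, miR92b_inhibitor and mixed (the 3 agents together). According to the methods, the oligonucleotides were used at 50 nM and RNA was extracted after 48 h. How the concentration was divided in the mixed group was not given in the sources used here. Because the labels do not state whether the 2 libraries of a group came from separate transfections, the p-values below measure the spread between these libraries only. Each library held between 13587666 and 18503890 counts, and no pair of libraries agreed within sampling noise (chi-square per degree of freedom from 1.75 to 2.63). The 10 genes took 1.65% of the counts in both miRcontrol libraries.

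Of the 10 bronchial epithelial markers checked, 8 exceeded 3 counts in some library, and KRT14 and TP63 did not. KRT7, KRT8 and KRT18 lay between 619 and 826 CPM (counts scaled to a library size of 1e+06) in miRcontrol, whereas CDH1, the adhesion protein of epithelial sheets, lay at 0.172 and 0.119 CPM and VIM, a mesenchymal filament protein, at 3894 and 3707 CPM. The marker lists moved with the treatments. The summed level of 11 mesenchymal markers was 7387 to 7413 CPM in miRcontrol, 6868 to 7015 in miR92b_inhibitor, 5038 to 5057 in mixed, 4651 to 4708 in miR200b_mimic and 4590.5 to 4712 in miR3124_mimic, with DES and MYH11 at the floor of 3 counts throughout. VIM, a large part of this sum, averaged 3800 CPM in miRcontrol, 4239 in miR92b_inhibitor, 2729 in mixed, 2982 in miR200b_mimic and 813 in miR3124_mimic. In miR92b_inhibitor VIM was thus higher where the sum was lower. In miR3124_mimic VIM fell by more than the whole sum, so the other markers together were not lower there. The epithelial list summed to 2227 to 2273 CPM in miRcontrol, 2102 to 2192 in miR92b_inhibitor, 2785 to 2794 in miR3124_mimic, 4091 to 4118 in mixed and 4202 to 4282 in miR200b_mimic. KRT7, KRT8 and KRT18 made up most of these sums. KRT19 went against them in 2 groups, with a mean of 8.20 CPM in miRcontrol, 0.760 in miR3124_mimic and 2.62 in mixed. It moved with them in miR200b_mimic (14.4 CPM) and miR92b_inhibitor (5.13 CPM). The 6 blood and endothelial markers summed to 1.14 to 1.85 CPM in miRcontrol, 1.52 to 2.03 in miR92b_inhibitor, 0.598 to 0.863 in miR200b_mimic, 2.71 to 3.07 in mixed and 15.4 to 17.5 in miR3124_mimic, with PTPRC and CD3E at the floor. Of these markers, only CD14 (5 to 219 counts) and CDH5 (0 to 59) exceeded 10 counts in any library. MYH11 and PTPRC were each listed on 2 rows, a pattern described below for ACTN4, and their counts do not show absence. The part of these shifts in the results below was not tested, and fewer cells of a kind and less RNA per cell cannot be told apart in bulk RNA.

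The mature sequences of the transfected or inhibited miRNAs are shown because their seeds, bases 2 to 8, are the words that can pair with the actin transcripts. They were taken from RefSeq (GRCh38.p14), 5′ to 3′, with the seed in capitals. The labels name only miR-92b for the inhibitor, so both arms are given.
hsa-miR-3124-5p: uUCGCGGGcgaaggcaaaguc
hsa-miR-200b-3p: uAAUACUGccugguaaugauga
hsa-miR-92b-5p: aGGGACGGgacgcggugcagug
hsa-miR-92b-3p: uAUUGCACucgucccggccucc
The 4 seeds differ from each other. The miR-3124-5p seed is rich in C and G and carries CG pairs, and its complement, CCCGCGA, or the form CCGCGAA with an A opposite base 1, was present in the 3′UTR of 0.776% of 12247 tested genes, in the coding sequence of 5.25% and in the 5′UTR of 4.24%. The corresponding words for miR-200b-3p, CAGTATT and AGTATTA, were present in the 3′UTR of 23.8%.

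The seed words were searched on the sense strand of 1 transcript of each gene (GENCODE v29, GRCh38). The following sites, with the matching word in capitals and 8 bases on each side, are shown because they lie in the genes with the largest falls.
ACTB, 5′UTR, miR-3124-5p: gcgtccgcCCCGCGAgcacagag
ACTN1, 3′UTR, miR-3124-5p: cctccctgCCCGCGAAgtgacagt
ACTN1, coding sequence, miR-3124-5p: cttcatgtCCCGCGAgacagccg
CFL2, 3′UTR, miR-200b-3p: acttttttCAGTATTAtttatagt
CFL2, 3′UTR, miR-200b-3p: ggtgtctgCAGTATTAttagtatt
The ACTB word (chr7:5530575-5530581, minus strand) lay in the 5′UTR, at bases 21 to 27 from the RefSeq start of the gene, and the ACTB 3′UTR of 601 bases held no word of 7 or 8 bases for any of the 4 miRNAs. ACTN1 held a word of 8 bases in its 3′UTR (chr14:68874709-68874716, minus strand) and a word of 7 bases in its coding sequence (chr14:68877146-68877152, minus strand). CFL2 held 6 words of 7 or 8 bases for miR-200b-3p, of which the 2 words of 8 bases lay at chr14:34712476-34712483 and chr14:34706832-34706839 on the minus strand, in a 3′UTR of 6096 bases against a median of 1131 bases over the tested genes. PFN2 held 1 word of 7 bases for miR-200b-3p. For miR-92b-3p, CFL2 and PFN2 each held 2 words of 7 or 8 bases in the 3′UTR and PFN1 held 1 in the 5′UTR. The coding sequences of PFN1 and ACTA2 each held 1 for miR-92b-5p and that of ACTN4 held 1 for miR-3124-5p. ACTG1, CFL1 and CAP1 held no word of 7 or 8 bases for any of the 4 miRNAs. A matching word is a description of the sequence and does not show that a miRNA bound there.

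In miRcontrol, ACTB and ACTG1 were by far the most abundant of the genes when the level was expressed as CPM per kilobase of the chosen transcript. ACTB reached 3722 ± 14.1 (SD, n = 2) and ACTG1 2525 ± 23.6. PFN1, CFL1 and ACTN1 followed at 568 ± 5.26, 434 ± 10.2 and 317 ± 2.40. CAP1 and PFN2 lay at 187 ± 4.23 and 101 ± 2.15, CFL2, whose transcript is long, at 32.3 ± 0.185 and ACTA2 at 1.39 ± 0.164. These neighbours in the order of levels per kilobase differed by more than their spread. PFN1 and CFL1 are thus the abundant and PFN2 and CFL2 the minor profilin and cofilin of these cells at the RNA level.

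**Figure D1:**
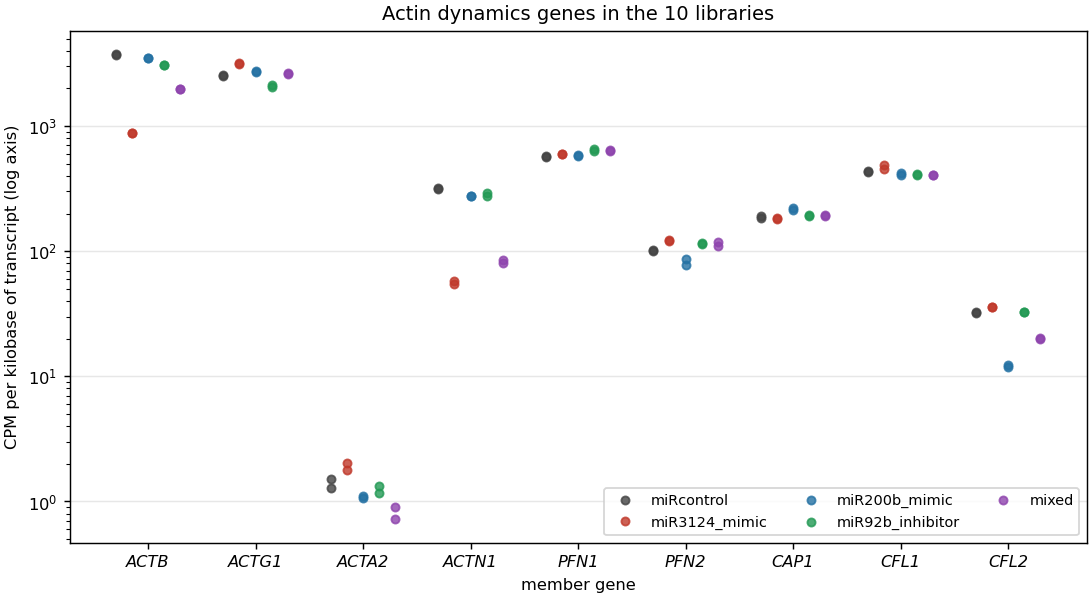
Levels of the 9 measurable genes in each of the 10 libraries, as CPM per kilobase of transcript on a log axis, with each point a library and the colour its group. ACTB and ACTN1 were lowest in miR3124_mimic, and CFL2 was lowest in miR200b_mimic.

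ACTB was the fourth most counted gene in both miRcontrol libraries and fell to ranks 30 and 29 in the miR3124_mimic libraries. Its level was 7169 and 7130.5 CPM in miRcontrol, 6692 and 6698 in miR200b_mimic, 5926 and 5889 in miR92b_inhibitor, 3807 and 3815 in mixed, and 1686 and 1687 in miR3124_mimic. No library of a group overlapped with a library of another group, and the order was miRcontrol, miR200b_mimic, miR92b_inhibitor, mixed and miR3124_mimic. Against miRcontrol, ACTB was 4.24-fold lower in miR3124_mimic (log2 fold change -2.08, the 37th lowest of 14884 genes tested), and its log2 fold change was -0.91 in mixed, -0.28 in miR92b_inhibitor and -0.09 in miR200b_mimic. These comparisons share the miRcontrol libraries that chose the gene. In the comparisons with none of the libraries behind the choice on either side, ACTB was lower in mixed than in miR200b_mimic (log2 fold change -0.81, 95% interval -0.87 to -0.75, adjusted p = 3.60e-26, Benjamini-Hochberg adjusted, quasi-likelihood test of edgeR) and lower than in miR92b_inhibitor (-0.63, -0.69 to -0.57, adjusted p = 1.55e-22, same test). The spread in these tests was estimated from all 10 libraries, including those behind the choice.

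ACTG1, the gene of gamma-actin, rose with the miR3124_mimic but by less than ACTB fell. Its level was 5735 and 5659 CPM in miRcontrol, 4793 and 4672 in miR92b_inhibitor, 6062 and 6179 in miR200b_mimic, 5974 and 5900.0 in mixed and 7251 and 7093 in miR3124_mimic. Both miR3124_mimic libraries lay above all others and both miR92b_inhibitor libraries below all others, and the mixed and miR200b_mimic libraries lay close together. Against miRcontrol, the log2 fold change of ACTG1 was 0.33 in miR3124_mimic (95% interval 0.27 to 0.39, adjusted p = 5.96e-13 by edgeR), 0.10 in miR200b_mimic (adjusted p = 0.00527) and -0.27 in miR92b_inhibitor (adjusted p = 1.21e-09). In mixed it was 0.06 (interval -0.00 to 0.12, adjusted p = 0.116), and this difference passed the threshold with TMM scaling (0.0472), library totals (0.0242) and DESeq2 (0.0419). ACTG1 was lower in mixed than in miR3124_mimic (-0.27, adjusted p = 2.30e-10) and higher than in miR92b_inhibitor (0.33, adjusted p = 2.10e-12).

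The summed level of the 7 actin genes (ACTB, ACTG1, ACTA2, ACTA1, ACTC1, ACTG2 and ACTBL2) was therefore lower in miR3124_mimic. In CPM it was 69.0% ± 0.870 of miRcontrol in miR3124_mimic, 75.9% ± 0.361 in mixed, 82.8% ± 0.874 in miR92b_inhibitor and 99.8% ± 0.685 in miR200b_mimic. Each ± is the SD of the 2 libraries of that group as a percentage of the miRcontrol mean. The spread of miRcontrol itself is not included. The gain of ACTG1 equalled 27.0% of the loss of ACTB in miR3124_mimic and 7.19% in mixed, and in miR92b_inhibitor both genes were lower. In miR200b_mimic, where ACTB differed from miRcontrol by -454 CPM, the ACTG1 gain equalled 93.2% of it. On the scale of CPM per kilobase the gain equalled 23.0% of the loss in miR3124_mimic and 79.4% in miR200b_mimic. On library totals it equalled 29.5% and 74.7%. These sums contain the ACTB values that chose the gene and were not tested.

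The main actin transcript changed from ACTB to ACTG1 in miR3124_mimic and in mixed. Per kilobase, ACTB made up 59.6% ± 0.133 (SD, n = 2) of the summed actins in miRcontrol, 56.2% ± 0.317 in miR200b_mimic, 59.4% ± 0.327 in miR92b_inhibitor, 43.0% ± 0.255 in mixed and 21.6% ± 0.274 in miR3124_mimic. The miR92b_inhibitor share was close to that of miRcontrol, since both genes were lower there by nearly the same factor. Of the ACTB and ACTG1 counts, ACTB took 55.29% and 55.76% in miR92b_inhibitor, on either side of the 55.56% and 55.75% in miRcontrol. The coding sequences of ACTB and ACTG1 were identical at 91.2% of 1128 bases, with a longest identical run of 59 bases, and how reads that match both genes were assigned was not given in the sources used here. Processed copies took few reads: ACTG1P20 held 60 to 126 counts and ACTG1P10 14 to 41.

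**Figure D2:**
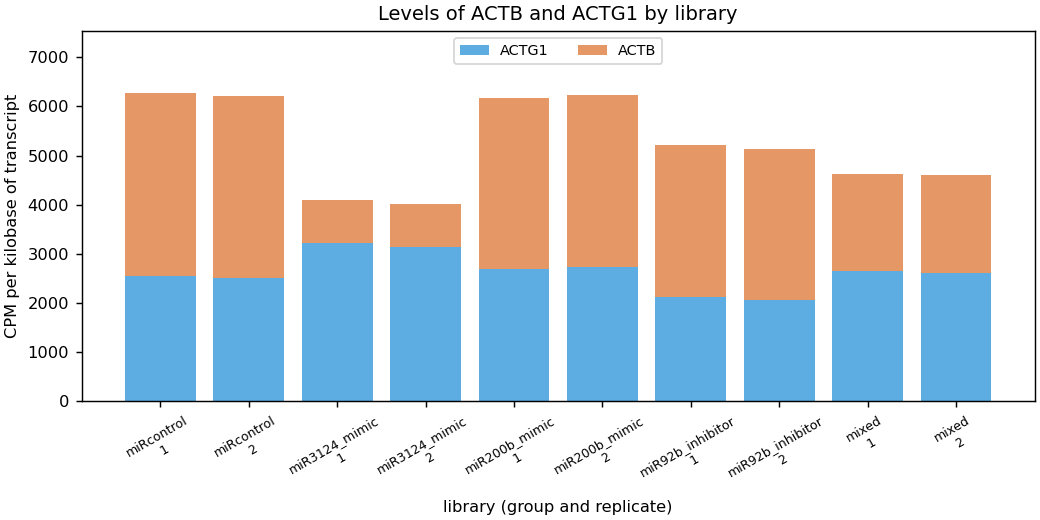
ACTB and ACTG1 stacked for each library, in CPM per kilobase of transcript. The ACTB part was smallest in the miR3124_mimic libraries, where the ACTG1 part was largest, and the stacked height there stayed below that of miRcontrol.

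None of the other actin genes reached a level near that of ACTB. ACTA2 held 30 and 34 counts in miRcontrol, 27 and 33 in miR92b_inhibitor, 20 and 25 in miR200b_mimic, 22 and 18 in mixed and 35 and 48 in miR3124_mimic. In CPM the miR3124_mimic libraries (2.39 and 2.72) lay above and the mixed libraries (1.22 and 0.969) below all others. No comparison of ACTA2 with miRcontrol passed the threshold (log2 fold change 0.45 with an interval of -0.13 to 1.04 and adjusted p = 0.199 in miR3124_mimic, and -0.77 with adjusted p = 0.0541 in mixed, by edgeR). When 10 counts were required throughout, the latter passed (0.0331). ACTA2 was lower in mixed than in miR3124_mimic (-1.23, adjusted p = 0.00108). Its exons overlap those of FAS on the opposite strand over 380 bases, and FAS held 110 to 176 counts. The strand setting of the counting was not given in the sources used here. The skeletal, cardiac and enteric actins ACTA1, ACTC1 and ACTG2 and the ACTB-like gene ACTBL2 averaged at most 0.653 CPM in any group.

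ACTN1, a crosslinker of stress fibres and adhesions, had the largest fall of the tested genes of the set. Its level was 1203 and 1190.2 CPM in miRcontrol, 1105 and 1037 in miR92b_inhibitor, 1048 and 1047 in miR200b_mimic, 303 and 320.2 in mixed and 220.2 and 206 in miR3124_mimic. The miR3124_mimic and mixed libraries lay far below all others and did not overlap with each other, while the ranges of miR200b_mimic and miR92b_inhibitor overlapped. ACTN1 fell 5.62-fold in miR3124_mimic (log2 fold change -2.49, 95% interval -2.57 to -2.41, adjusted p = 6.47e-42 by edgeR), the 17th lowest of the 14884 genes tested. It fell 3.84-fold in mixed (-1.94, -2.02 to -1.87, adjusted p = 1.89e-37), the 33rd lowest.

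The falls of ACTN1 in miR200b_mimic (log2 fold change -0.19, adjusted p = 1.58e-05) and in miR92b_inhibitor (-0.16, adjusted p = 0.000308) were small beside these. ACTN1 was higher in mixed than in miR3124_mimic (0.55, 0.47 to 0.63, adjusted p = 5.50e-16). ACTB, as a description, differed between the same groups by 1.18 on the log2 scale. In these values the mixed group kept a fall of ACTN1 nearer in size to that of the single mimic than it did for ACTB. The difference between the genes was not tested, and ACTB was chosen for its fall in miR3124_mimic. Over the 18 alternative settings the log2 fold change of ACTN1 in miR3124_mimic stayed between -2.54 and -2.44. The pseudogene HMGN1P3, which shares 300 exon bases with ACTN1 on the same strand, held 26 to 78 counts.

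ACTN4, the other non-muscle alpha-actinin, could not be followed. It was listed on 2 rows and held 0 or 1 count in every library, so it did not pass the filter on low counts and no fold is given. Its neighbours EIF3K, MAP4K1 and CAPN12 were also listed on 2 rows, with 0 to 2 counts. Among all symbols listed on more than 1 row, 83.3% held at most 3 counts in every library, against 62.1% of symbols on a single row. The cause was not tested, and the counts do not show that ACTN4 was absent from the cells. The muscle genes ACTN2 and ACTN3 had no counts.

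The profilins changed little. PFN1 was 729 and 738 CPM in miRcontrol, 849 and 823 in miR92b_inhibitor, 753 and 748 in miR200b_mimic, 824 and 810.5 in mixed and 766 and 775 in miR3124_mimic. The miR92b_inhibitor and mixed libraries lay above all others. PFN1 rose by 0.19 on the log2 scale in miR92b_inhibitor (95% interval 0.12 to 0.26, adjusted p = 1.13e-05 by edgeR) and by 0.16 in mixed (adjusted p = 0.000128). In miR3124_mimic it differed by 0.07 (0.00 to 0.14, adjusted p = 0.0762), which passed with library totals (0.00894), a minimum of 10 counts (0.0256) and DESeq2 (0.0452), and in miR200b_mimic by 0.03 (-0.03 to 0.10, adjusted p = 0.473). The processed copy PFN1P2 held 161 to 402 counts.

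PFN2 was 233 and 226 CPM in miRcontrol, 256 and 265 in miR92b_inhibitor, 196 and 174 in miR200b_mimic, 250.4 and 268 in mixed and 273 and 280.3 in miR3124_mimic. The miR200b_mimic libraries alone lay below miRcontrol. PFN2 fell in miR200b_mimic (log2 fold change -0.32, 95% interval -0.41 to -0.22, adjusted p = 9.15e-08 by edgeR) and rose in miR3124_mimic (0.27, adjusted p = 7.16e-07), miR92b_inhibitor (0.18, adjusted p = 0.000643) and mixed (0.18, adjusted p = 0.000662). Without mixed replicate 2 the last rise was not called (adjusted p = 0.0617). PFN2 was higher in mixed than in miR200b_mimic (0.49, adjusted p = 7.26e-13). PFN1 accounted for 76.2% of the PFN1 and PFN2 counts in miRcontrol, 73.6% in miR3124_mimic and 80.2% in miR200b_mimic.

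CAP1, which works with cofilin in depolymerization, passed the threshold against miRcontrol only in miR200b_mimic. It was 589 and 570.05 CPM in miRcontrol, 599 and 598 in miR92b_inhibitor, 691 and 662 in miR200b_mimic, 589 and 604 in mixed and 571 and 562 in miR3124_mimic. The miR200b_mimic libraries lay above all others, and the remaining 8 libraries spanned 562 to 604 CPM. CAP1 rose by 0.22 on the log2 scale in miR200b_mimic (95% interval 0.15 to 0.29, adjusted p = 7.47e-07 by edgeR) and was lower in mixed than in miR200b_mimic (-0.18, adjusted p = 3.96e-05). Its differences from miRcontrol in the other groups had intervals within -0.10 and 0.12. Its exons overlap those of PPT1 on the opposite strand over 1189 bases, and PPT1 held 1674 to 3095 counts.

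CFL2, the minor cofilin, fell with the miR200b_mimic. Its level was 217 and 219 CPM in miRcontrol, 219.6 and 219 in miR92b_inhibitor, 80.5 and 83.0 in miR200b_mimic, 133 and 137 in mixed and 240.5 and 243 in miR3124_mimic. The miR200b_mimic libraries lay lowest, the mixed libraries next, and the other groups lay above both. CFL2 fell 2.66-fold in miR200b_mimic (log2 fold change -1.41, 95% interval -1.50 to -1.33, adjusted p = 7.38e-30 by edgeR) and by 0.69 on the log2 scale in mixed (-0.77 to -0.61, adjusted p = 2.52e-19). It rose slightly in miR3124_mimic (0.15, adjusted p = 0.00101) and did not pass the threshold in miR92b_inhibitor (0.01, -0.07 to 0.09, adjusted p = 0.906). The mixed group differed from each single agent, by 0.73 from miR200b_mimic (adjusted p = 7.38e-18), by -0.84 from miR3124_mimic (1.62e-22) and by -0.70 from miR92b_inhibitor (1.86e-19).

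CFL1, the main cofilin of non-muscle cells, was 801 and 828 CPM in miRcontrol, 776 and 757 in miR92b_inhibitor, 786 and 766 in miR200b_mimic, 762 and 766 in mixed and 851 and 913 in miR3124_mimic. The miR3124_mimic libraries lay above all others, and the other groups lay close together. All log2 fold changes of CFL1 against miRcontrol lay between -0.09 and 0.12. The rise in miR3124_mimic (0.12, adjusted p = 0.00511 by edgeR) was not called without miRcontrol replicate 1 (0.0979) or miR3124_mimic replicate 2 (0.264). The differences in miR92b_inhibitor (adjusted p = 0.0450) and mixed (0.0291) were not called with TMM scaling (0.0768 and 0.0594) or library totals, nor without miRcontrol replicate 2 (0.300 and 0.232), mixed replicate 1 (0.0638 and 0.134) or mixed replicate 2 (0.0618 and 0.0911), and the former was also lost without miRcontrol replicate 1 (0.0519), miR92b_inhibitor replicate 1 (0.0614) or miR92b_inhibitor replicate 2 (0.260). As CFL2 fell, CFL1 accounted for 90.5% ± 0.342 (SD, n = 2) of the CFL1 and CFL2 counts in miR200b_mimic and 85.0% ± 0.231 in mixed, against 78.9% ± 0.295 in miRcontrol. The exons of CFL1 overlap those of MUS81 on the opposite strand over 759 bases, and MUS81 held 395 to 695 counts.

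Besides ACTB, 8 of the other 9 genes could be tested. In miR3124_mimic 5 of these 8 passed an adjusted p of 0.05, where 51.0% of all tested genes did. Of these, 4 were higher (background 25.7%) and 1 lower (25.3%). The count was also 5 of 8 in miR200b_mimic (background 40.6%), in miR92b_inhibitor (35.7%) and in mixed (42.7%, with 3 of 8 without mixed replicate 2). In each of these groups 2 genes were higher and 3 lower, with backgrounds of 21.5% and 21.1% in mixed, 17.5% and 18.2% in miR92b_inhibitor, and 21.4% and 19.1% in miR200b_mimic. Against the single agents, mixed differed for 6 of 8 genes from miR3124_mimic (49.1%), 5 of 8 from miR200b_mimic (38.6%) and 3 of 8 from miR92b_inhibitor (39.6%). With so many genes called, these counts of 3 to 6 among 8 do not set the group apart. A fold of at least 2 was passed by ACTN1 in miR3124_mimic (background 8.13%) and mixed (4.67%), by CFL2 in miR200b_mimic (4.88%) and by none of the 8 in miR92b_inhibitor (1.91%). Over the 8 genes, the median log2 fold change in mixed was -0.02, in miR92b_inhibitor -0.04, in miR200b_mimic -0.13 and in miR3124_mimic 0.13, and over all genes tested the 4 medians lay between -0.01 and 0.00.

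**Figure D3:**
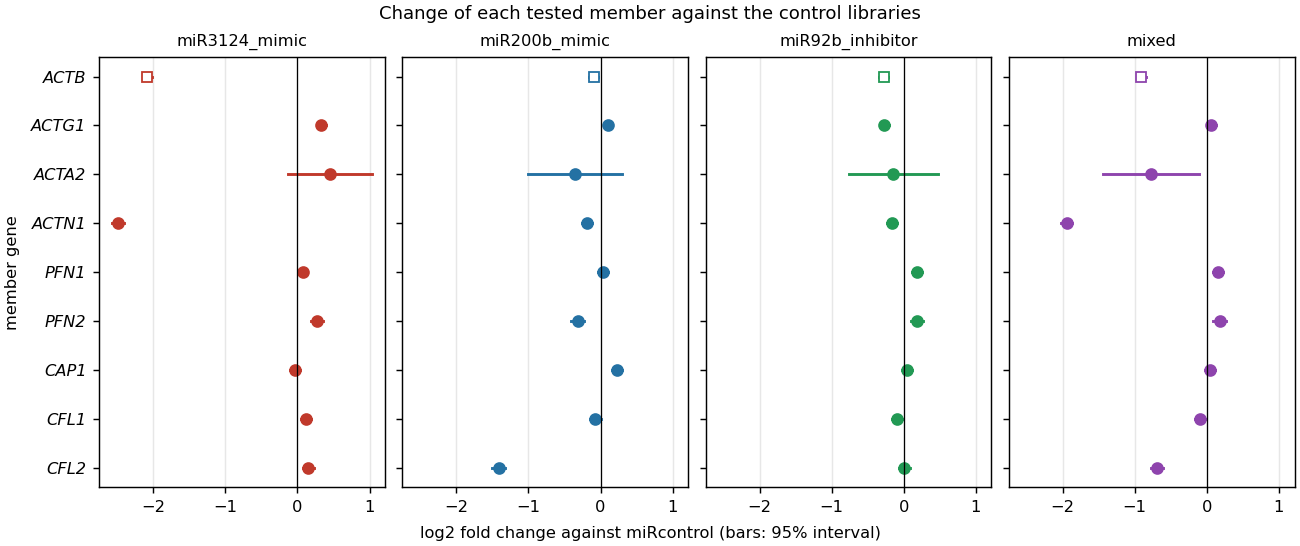
Log2 fold change of each of the 9 tested genes against miRcontrol with its 95% interval, by group. ACTB, which chose the set, is drawn as an open square and is a description only. ACTN1 lies at -2.49 in miR3124_mimic and -1.94 in mixed, CFL2 at -1.41 in miR200b_mimic, and the wide intervals belong to ACTA2.

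The wider actin machinery was described with lists of 136 symbols, some of them alternative names of the same gene. Of these symbols, 131 were listed in the counts and 109 tested. In miR3124_mimic 39 rose and 34 fell (35.8% and 31.2%, against 25.7% and 25.3% of all genes tested). In mixed 28 rose and 32 fell (25.7% and 29.4%, against 21.5% and 21.1%). In miR92b_inhibitor 22 rose and 42 fell (20.2% and 38.5%, against 17.5% and 18.2%), and in miR200b_mimic 41 rose and 27 fell (37.6% and 24.8%, against 21.4% and 19.1%). The median log2 fold changes were 0.04 in miR3124_mimic, -0.03 in mixed, -0.08 in miR92b_inhibitor and 0.06 in miR200b_mimic, against medians of -0.01 to 0.00 over all genes tested. The same background shares apply to the single lists, which were described by counts and not tested. Of the 8 kinases and phosphatases of cofilin, 6 rose and 1 fell in miR200b_mimic (75.0% and 12.5%, median 0.39), 3 rose and 2 fell in mixed (median 0.17), 1 rose and 3 fell in miR3124_mimic (median -0.13), and 4 fell and none rose in miR92b_inhibitor (median -0.26). Of the 10 Arp2/3 subunits, which nucleate branched filaments, 2 rose and 5 fell in miR3124_mimic, 6 rose and 2 fell in miR200b_mimic, and none rose while 5 fell in miR92b_inhibitor and 4 in mixed. Of the 17 tested genes of actin folding, mostly subunits of the CCT chaperonin and of prefoldin, 3 rose and 10 fell in miR3124_mimic (17.6% and 58.8%, median -0.15), 12 rose and 1 fell in miR92b_inhibitor (70.6% and 5.88%, median 0.24), 7 rose and 1 fell in mixed (median 0.08) and 6 rose and 3 fell in miR200b_mimic (median 0.08). These differences between groups were not tested. CCT4 changed most in miR3124_mimic within that list (-0.81, adjusted p = 1.13e-20 by edgeR), a gene named here after its value was seen.

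**Figure D4:**
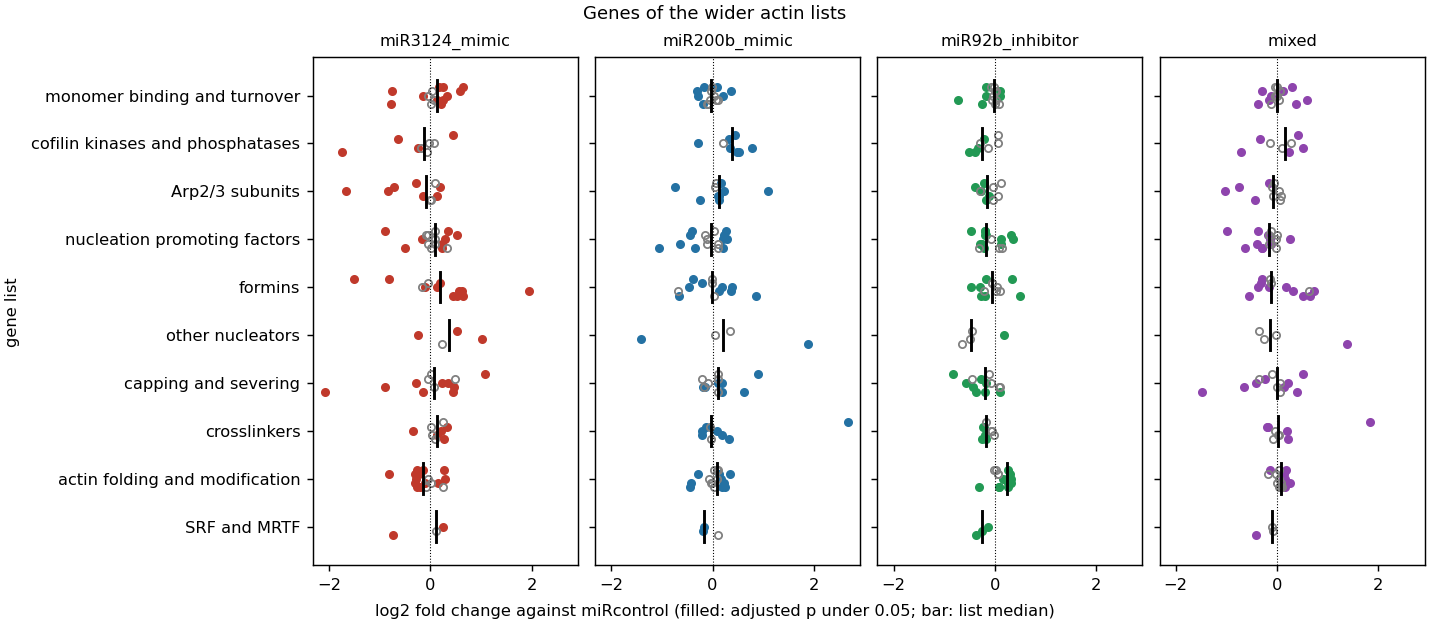
Log2 fold change against miRcontrol of the genes of 10 actin-related lists, by group, with filled points for an adjusted p under 0.05, open points for the other genes and a bar at the median of each list. Most genes lie within 1 of zero, and single genes such as ADD1 in miR3124_mimic and LCP1 in miR200b_mimic stand apart from their lists.

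The genes of these lists with the largest changes were LIMK1, ARPC4, ADD1, FMNL1, GSN, LCP1, ACTR3B, COBL, CYFIP2, LMOD1 and DAAM2. LIMK1, the kinase that inactivates cofilin, was 108 and 110 CPM in miRcontrol, 80.2 and 73.2 in miR92b_inhibitor, 152 and 153 in miR200b_mimic, 67.0 and 66.7 in mixed and 32.2 and 32.6 in miR3124_mimic. It fell in miR3124_mimic (log2 fold change -1.75, adjusted p = 4.44e-29 by edgeR) and mixed (-0.70, adjusted p = 2.51e-16) as well as in miR92b_inhibitor (-0.51, adjusted p = 1.63e-11) and rose in miR200b_mimic (0.49, adjusted p = 3.16e-12). ARPC4, a subunit of the Arp2/3 complex, fell in miR3124_mimic (-1.66, adjusted p = 3.41e-30) and mixed (-1.03, adjusted p = 2.16e-23). ADD1, an adducin that caps filaments and joins them to spectrin, fell from 170.3 and 171 CPM to 40.0 and 40.5 in miR3124_mimic (-2.08, adjusted p = 1.41e-33) and to 64.3 and 57.9 in mixed (-1.48, adjusted p = 5.97e-29). LIMK1, ARPC4 and ADD1 held no word of 7 or 8 bases for miR-3124-5p in the 5′UTR or 3′UTR of the transcript searched. Words in their coding sequences are not described here.

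FMNL1, a formin that elongates filaments, fell in miR3124_mimic (log2 fold change -1.51, adjusted p = 1.02e-20 by edgeR) and miR200b_mimic (-0.39, adjusted p = 1.63e-05) and was higher in miR92b_inhibitor (0.35, adjusted p = 3.13e-05). GSN, the filament-severing protein gelsolin, rose in miR3124_mimic (1.08, adjusted p = 1.76e-18), miR200b_mimic (0.90, adjusted p = 3.76e-15) and mixed (0.51, adjusted p = 4.69e-08) and fell in miR92b_inhibitor (-0.82, adjusted p = 5.36e-11). LCP1, the bundling protein L-plastin, rose in miR200b_mimic (2.68, adjusted p = 3.77e-19) and mixed (1.83, adjusted p = 1.20e-12) from 3.26 and 2.45 CPM in miRcontrol. ACTR3B rose in miR200b_mimic (1.10) and fell in miR3124_mimic (-0.83), and the nucleator COBL rose in miR200b_mimic (1.88) and mixed (1.39). CYFIP2, of the WAVE complex, fell in miR200b_mimic (-1.06) and mixed (-0.63), and LMOD1 and DAAM2, both at most 2.21 CPM in every library, rose in miR3124_mimic (1.03 and 1.96). LMOD1 fell in miR200b_mimic (-1.41, adjusted p = 0.0371).

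Genes with a miR-3124-5p word in the 3′UTR had a lower median in miR3124_mimic than genes without one. The median log2 fold change was -0.58 over 95 genes with a word of 7 or 8 bases in the 3′UTR, of which 61.1% were called lower, and -0.49 over the 18 genes with a word of 8 bases there, as in ACTN1, of which 66.7% were. It was 0.01 over 12152 genes with no word in the 3′UTR, of which 28.1% were called lower, and 0.01 over 11038 genes with no word in any region, of which 26.7% were. For 513 genes with the word in the 5′UTR and none in the 3′UTR, as in ACTB, the median was -0.04 and 37.4% were called lower. The 601 genes with a word in the coding sequence and in no UTR had a median of -0.18. In miR200b_mimic, 597 genes with a word of 8 bases in the 3′UTR, as in CFL2, had a median of -0.14 and 41.2% were called lower. The 2911 genes with a word of 7 or 8 bases there had a median of -0.05 and 31.4% were called lower, against a median of 0.02 and 18.1% of 9336 genes with no word in the 3′UTR. These classes were not tested, and ACTB and ACTN1 at -2.08 and -2.49 and CFL2 at -1.41 lay far below the medians of their own classes.

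ACTB is a common reference gene in qPCR, and its change carried over to any ratio to it. Across 15 other reference genes, the log2 ratio of the gene to ACTB rose by a median of 1.90 (1.58 to 2.73) in miR3124_mimic, 0.89 (0.54 to 1.41) in mixed and 0.36 (-0.20 to 0.65) in miR92b_inhibitor, against 0.04 (-0.17 to 0.28) in miR200b_mimic. GAPDH over ACTB, for example, was higher by 2.15 in miR3124_mimic and by 0.89 in mixed. These ratios contain the ACTB values that chose the gene. Scaled to the library, none of the 15 passed a fold of 2 in any group, and their log2 fold changes in miR3124_mimic ranged from -0.50 to 0.65 with a median of -0.18.

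**Figure D5:**
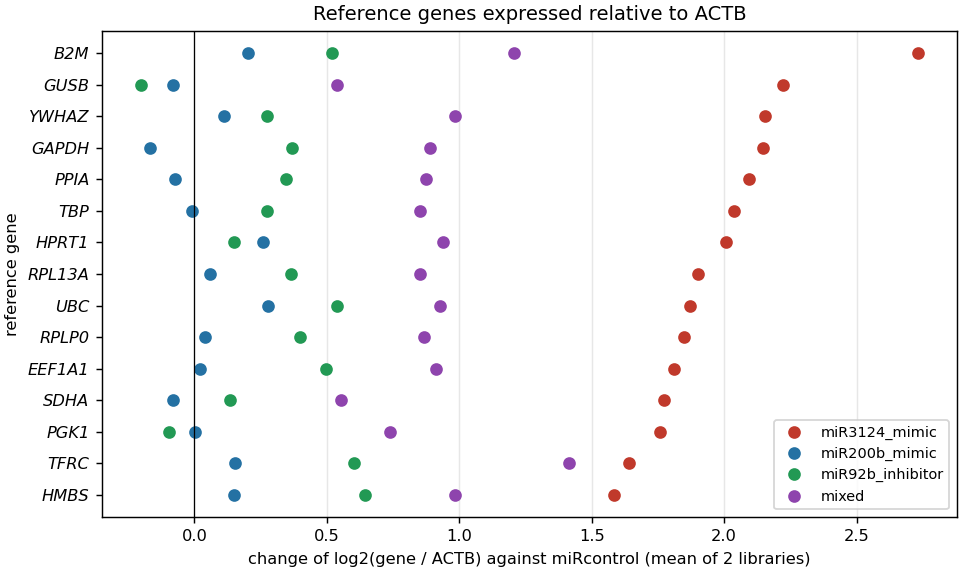
Change of the log2 ratio of 15 reference genes to ACTB against miRcontrol, as the mean of 2 libraries of each group. Every point of miR3124_mimic lies at 1.58 or higher, and the miR200b_mimic points lie between -0.17 and 0.28.

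Among 1095 genes with a mean of at least 10 CPM and group means spanning at least 2-fold, those whose log2 CPM followed ACTB most closely over the 10 libraries were SMARCA4, BTBD6, BRD9, WDR5 and ZYX, with Pearson r from 0.993 to 0.998. SMARCA4, a chromatin remodelling ATPase, averaged 267 CPM in miRcontrol, 144 in mixed and 54.9 in miR3124_mimic, and ZYX, the adhesion protein zyxin, 253, 182 and 94.0. TSC1, PNKD and FBXO10 ran most opposite to ACTB, with r from -0.993 to -0.984. The 10 libraries are 5 pairs, so each coefficient mainly reflects the 5 group levels. Those for ACTB contain the miR3124_mimic and miRcontrol values that chose the gene, and they were not tested. For ACTG1, the closest of 9268 genes were LZTS3, RNF123, AFAP1, GMCL1 and G3BP2, with r from 0.982 to 0.993. AFAP1, which encodes an actin filament binding protein, averaged 294 CPM in miRcontrol, 397 in miR3124_mimic and 205 in miR92b_inhibitor.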

How the data were processed

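Poly(A) RNA of BEAS2B cells was sequenced in 10 libraries. According to the methods and the submitters' processing notes, reads were checked with FastQC, trimmed by the authors with FASTX_Trimmer and BBMap, and mapped with TopHat to GRCh38. The counting tool, the annotation and the strand setting were not given in the sources used here. The deposited values are raw counts per gene, to which the FPKM and geometric normalization of the methods had not been applied. Each library listed 58173 rows, and rows sharing a symbol were added together.

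Counts were analysed in R 4.3.3 with edgeR 4.0.16 and limma 3.58.1: filterByExpr, RLE scaling and quasi-likelihood tests from a single fit of all 10 libraries without covariates, and Benjamini-Hochberg adjustment over 14884 genes. The steps were also run on simulated data in which far fewer genes changed than were called here. That run does not measure the error rate of these calls. CPM values were RLE-scaled, intervals are at 95%, and a gene with at most 3 counts was taken as at the floor. The numbers of the replicates paired no libraries (deviations of same-numbered libraries correlated at -0.03 to 0.05 over 14884 genes).

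The members and lists were chosen with earlier results of these data known. From each wider list, the at most 3 genes with the largest log2 fold change past a fold of 2 and an adjusted p of 0.05 against miRcontrol, with a group mean of at least 1 CPM, were named. The genes most like ACTB (5, and 3 most opposite) and ACTG1 (5) were named by Pearson r. Seed words were matched to 1 GENCODE v29 transcript a gene. The promoters of ACTB and PFN2 were not analysed here, and 1 marker gene of a cell type list is not reported here. Alternatives were TMM, library totals, DESeq2 1.42.0, no filter, at least 10 counts in every library, the 2 groups alone, the row with most counts only, a replicate block and leaving out each library.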

Additional observations from a re-analysis of the deposited data

How the results depend on the processing

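ACTB is left out of the following counts. The counts of called genes of the set and of the wider lists stayed within 1.5 times the reported count under all alternatives run, except that the 5 genes called in mixed against miRcontrol were 3 to 5 with a library left out, with 3 without mixed replicate 2. Of 448 log2 fold changes of the set under the settings that keep all libraries, 430 kept their side of the threshold, 13 were newly called and 5 were lost. With a library left out, 541 of 560 kept it, 3 were newly called and 16 were lost. No called value changed sign, and uncalled values of CAP1, CFL1 and PFN2 near 0 did in some settings. Those lost were small changes of CFL1, PFN1 and PFN2, and those newly called included CAP1 and PFN2 in mixed against miR3124_mimic. The replicate block, although the numbers do not pair the libraries, changed no call of the set: 5 genes other than ACTB were called in each comparison with miRcontrol, and ACTN1 stayed at -2.49 in miR3124_mimic. The rise of PFN1 in mixed over miR3124_mimic (0.09, adjusted p = 0.0292 by edgeR) was lost without any of these 4 libraries (0.0555 to 0.149).

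The summed actin level of miR3124_mimic, 69.0% of miRcontrol in CPM, was 65.0% per kilobase and 70.2% on library totals, and that of mixed, 75.9%, was 73.9% and 76.7%. Leaving out a library gave 68.4% to 69.6% in miR3124_mimic, 75.5% to 76.2% in mixed, 82.2% to 83.4% in miR92b_inhibitor and 99.3% to 100.2% in miR200b_mimic. By Spearman's rho, 1 of the 5 genes most like ACTB was among the first 5. Low counts limit ACTA2, and ACTN4 could not be measured.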
